A study of Mus musculus with 25 samples.

Results

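Mannose at 20% in the drinking water was compared between mice that drank it for 12 weeks and mice that drank it for the last 6 weeks of the same regimen. The 6 liver libraries of this comparison, 3 per schedule, were taken by their column names from the 25 libraries of the series. All the mice were male C57BL/6J, 8 weeks old at the start and 20 weeks old at the end. Both groups were on the FAT-MASH regimen, a model of metabolic dysfunction-associated steatohepatitis. Its chow was rich in sucrose (41%), fat (21.1%) and cholesterol (1.25%), its water held fructose (23.1 g/L) and glucose (18.9 g/L), and carbon tetrachloride, a liver toxin, was injected once a week. The first group, here called prevention, had 20% mannose for 12 weeks, and the second, here called therapy, had it for 6 weeks after 6 weeks of the regimen alone. Mannose was taken freely from the water, so the dose each mouse drank is not known. The timing question was also asked at 5% mannose in 3 and 3 mice, and 3 mice on the regimen without mannose (FAT-MASH) give the level both groups are set beside. A further 3 mice, on a normal diet without mannose, entered only the fit that the tests share. Prevention and therapy differed in the length of exposure and in the age at its start, which cannot be told apart.

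Mannose is a hexose that enters cells by the same carriers as glucose and, once phosphorylated, is either used to build glycans or turned into fructose 6-phosphate by phosphomannose isomerase. Adult hepatocytes mostly rest outside the cell cycle and carry the liver's secreted proteins, bile acid synthesis and drug metabolism. After injury they can re-enter the cycle, in which E2F factors drive the DNA replication genes of S phase and the DREAM and MYB-FOXM1 complexes time the mitotic genes through the CHR element of their promoters.

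The 6 libraries held 40695097 to 50081298 counted reads, and the 10 most abundant genes took 16.18% to 18.42% of them. Alb, the albumin gene that marks hepatocytes, stood at 46748 to 74659 CPM (counts per 1000000 counted reads after scaling) in these liver libraries. The libraries did not separate cleanly by schedule. On the first principal component of these 6 libraries, which held 29.8% of the variance, prevention replicate 3 (32.63) lay with therapy replicates 1 (38.07) and 3 (39.31). Therapy replicate 2 (-30.88) lay with prevention replicates 1 (-50.33) and 2 (-28.8). The markers of bile duct cells followed the same division, with a summed level of 720 CPM in prevention replicate 3, 766 and 985 CPM in therapy replicates 1 and 3, and 321 to 406 CPM in the other three. Counts and medians that moved by more than 1.5 times when 1 library was left out are given beside the result.

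Few genes separated the schedules. Of 19571 genes tested with edgeR's quasi-likelihood test, 16 (0.0818%) passed an adjusted p of 0.05 after Benjamini-Hochberg adjustment. Of these, 5 were higher with therapy (0.0255% of genes) and 11 lower (0.0562%). No library of one group overlapped the other in any of the 16, which choosing genes by a low p itself favours. Over all genes, 8.45% had every therapy library above every prevention library and 8.69% below. An unadjusted p under 0.05 was reached by 2313 genes (11.8%). The largest of the 16 differences was a log2 fold change of -1.51 and the smallest 0.53 in size, and 3 genes differed by at least 1. Over all genes the median log2 fold change, always given here as therapy minus prevention, was 0.00. The count depended on single libraries. It was 1, 18 and 10 without prevention replicates 1, 2 and 3, and 3, 111 and 1 without therapy replicates 1, 2 and 3. Of the 16 genes themselves, 1, 9 and 6 kept their call without prevention replicates 1, 2 and 3, and 1, 16 and 1 without therapy replicates 1, 2 and 3. A fit of the 6 libraries alone called 0 genes by the same test, with 2266 at an unadjusted p under 0.05, and DESeq2 called 436 in the fit of all groups. When libraries were scaled by their totals only, the median of all genes moved to 0.12 and the split became 161 higher and 22 lower.

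**Figure D1:**
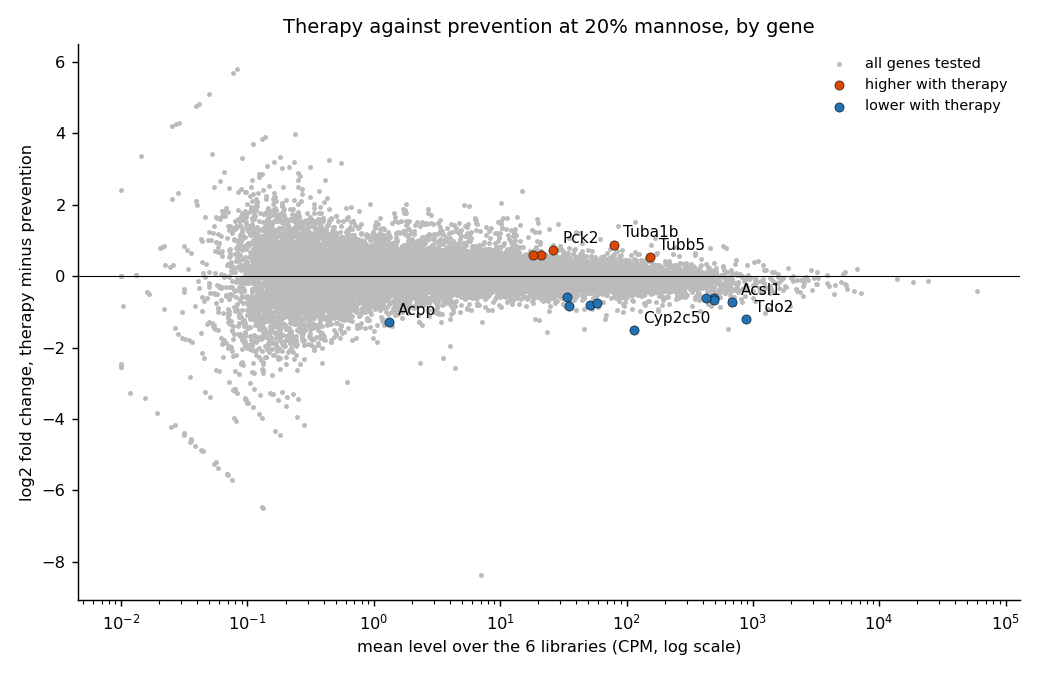
Each gene's log2 fold change, therapy minus prevention at 20% mannose, is plotted against its mean level over the 6 libraries in CPM on a log axis. The 5 genes called higher (orange) and 11 called lower (blue) have differences between -1.51 and 0.88; wider differences belong to genes of low or uneven level (grey) that did not pass.

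The gene that separated the schedules most firmly was Tuba1b, an alpha-tubulin of the microtubules (ENSMUSG00000023004.9, GRCm39 chromosome 15, 98829306 to 98832446, minus strand). Its exons share 426 bases with Gm49450 on the same strand and 174 with Gm41396 on the other, and strand was not used in counting. It stood at 52.1, 59.2 and 57.9 CPM in the prevention libraries and at 117, 98.2 and 96.7 CPM in the therapy libraries. Every therapy library was above every prevention library, by a log2 fold change of 0.88 ± 0.10 (SE, adjusted p = 0.00103 by edgeR). FAT-MASH livers without mannose had 39.9, 41.9 and 36.7 CPM, so therapy lay 1.39 ± 0.10 above them and prevention 0.51 ± 0.10. Tuba1b kept its call in 13 of 14 other settings, including each of the 6 left-out libraries, and missed it in the fit of the 6 libraries alone (adjusted p = 0.0546).

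Tubb5, a beta-tubulin (chromosome 17, 36144813 to 36149198), was likewise higher with therapy, at 185, 182 and 181 CPM against 115, 143 and 119 CPM. The log2 fold change was 0.53 ± 0.10 (adjusted p = 0.0473 by edgeR), with FAT-MASH at 78.2 to 82.0 CPM. Tubulin genes have close copies in the genome, and reads shared between copies are an uncertainty of both values. Tubb6, another beta-tubulin, had 66.0, 56.2 and 51.5 CPM with therapy and 27.6 to 35.6 CPM with prevention, a difference of 0.93 ± 0.18 that did not pass (adjusted p = 0.0583 by edgeR).

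Mcm7, a subunit of the helicase that opens DNA for replication (chromosome 5, 138162845 to 138170684), had 26.7, 22.5 and 26.3 CPM with therapy against 17.5, 16.9 and 16.1 CPM with prevention. The difference was 0.58 ± 0.11 (adjusted p = 0.0473 by edgeR), and FAT-MASH livers, at 15.4 to 17.2 CPM, lay where prevention did. The exons of Mcm7 share 1057 bases with Ap4m1 and 158 with Cops6 on the opposite strand. Pck2, the mitochondrial phosphoenolpyruvate carboxykinase (chromosome 14, 55777723 to 55788699), had 35.7, 28.3 and 34.3 CPM with therapy against 20.9, 20.4 and 18.5 CPM. It differed by 0.72 ± 0.13 (adjusted p = 0.0454 by edgeR), and its exons share 53 bases with Gm10876 on the opposite strand. Gstp3, a pi-class glutathione S-transferase (chromosome 19, 4107477 to 4109569), was the only one of the 5 that prevention had called lower than FAT-MASH. It had 15.3, 12.9 and 15.3 CPM with prevention, 23.1, 20.6 and 21.8 CPM with therapy and 19.0 to 20.2 CPM without mannose (therapy minus prevention 0.59 ± 0.11, adjusted p = 0.0473 by edgeR). Its family also holds close copies.

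Of the 11 genes lower with therapy, 3 belong to the hepatocyte lists described further on (Tdo2, Cyp2c50 and Slc27a5). Cyp2c50, a drug-metabolising cytochrome of the closely related Cyp2c genes (chromosome 19, 40078132 to 40102394), had 201, 163 and 149 CPM with prevention. With therapy it had 54.0, 74.7 and 51.5 CPM, all below the prevention libraries, and the difference was -1.51 ± 0.22 (adjusted p = 0.0127 by edgeR). Tdo2, tryptophan dioxygenase, which opens tryptophan breakdown in hepatocytes (chromosome 3, 81864397 to 81883509), had 1543, 1193 and 975 CPM with prevention and 521, 629 and 458 CPM with therapy. It differed by -1.21 ± 0.18 (adjusted p = 0.0142 by edgeR), and FAT-MASH livers had 1690 to 2170 CPM. For Cyp2c50 they had 264 to 446 CPM, and in both genes FAT-MASH lay above prevention and prevention above therapy without overlap. Each kept its call in 3 of the 6 fits with a library left out; the highest adjusted p over all 14 settings was 0.133 for Cyp2c50 and 0.176 for Tdo2.

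Enzymes and carriers of lipids and bile acids were among the rest. Acsl1, which activates long-chain fatty acids (chromosome 8, 46924074 to 46989088), had 1009, 792 and 769 CPM with prevention and 463, 517 and 575 CPM with therapy (-0.72 ± 0.12, adjusted p = 0.0407 by edgeR). Its exons share 1216 bases with Gm45244 on the opposite strand. Slc27a5, the bile acyl-CoA synthetase that readies bile acids for conjugation (chromosome 7, 12722273 to 12732119), had 659, 606 and 552 CPM against 339, 475 and 330 CPM with therapy, a difference of -0.67 ± 0.13 (adjusted p = 0.0473 by edgeR). Abca8a, a transporter of the ABC family (chromosome 11, 109916460 to 109986804), had 85.8, 58.8 and 74.1 CPM against 44.0, 41.6 and 43.7 CPM (-0.76 ± 0.13). Ugt1a1, the bilirubin glucuronosyltransferase (chromosome 1, 88139681 to 88146719), had 47.9, 46.5 and 41.1 CPM against 21.9, 24.9 and 29.5 CPM (-0.83 ± 0.15). Its exons are shared with 8 other Ugt1a genes and, on the opposite strand, with Gm20528 (1196 bases), so its count covers only what that overlap left.

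The others include 2 proteins of the plasma. Pon1, the paraoxonase of HDL (chromosome 6, 5168090 to 5193946), had 664, 534 and 583 CPM with prevention and 358, 427 and 378 CPM with therapy (-0.61 ± 0.11). Hrg, the histidine-rich glycoprotein of plasma (chromosome 16, 22769822 to 22780406), had 543, 509 and 480 CPM against 305, 371 and 326 CPM (-0.61 ± 0.10). Mreg, melanoregulin, a protein of organelle transport (chromosome 1, 72198601 to 72251466), had 44.6, 40.9 and 37.6 CPM against 25.7, 30.5 and 25 CPM (-0.60 ± 0.11). The therapy libraries were below all prevention libraries in each of these 3 genes. The adjusted p of Abca8a, Ugt1a1, Pon1, Hrg and Mreg lay between 0.0316 and 0.0473 by edgeR. Acpp, the gene of prostatic acid phosphatase, and the predicted gene Gm9826 also passed and lie outside the rule by which the other 14 are described, the first for its low level and the second for its name. Acpp had 1.58 to 2.12 CPM with prevention and 0.627 to 0.998 CPM with therapy (-1.28 ± 0.24), against 9.29 to 9.97 CPM in FAT-MASH livers. Gm9826 had 54.6 to 79.5 CPM and 31.2 to 41.9 CPM (-0.81 ± 0.15).

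**Figure D2:**
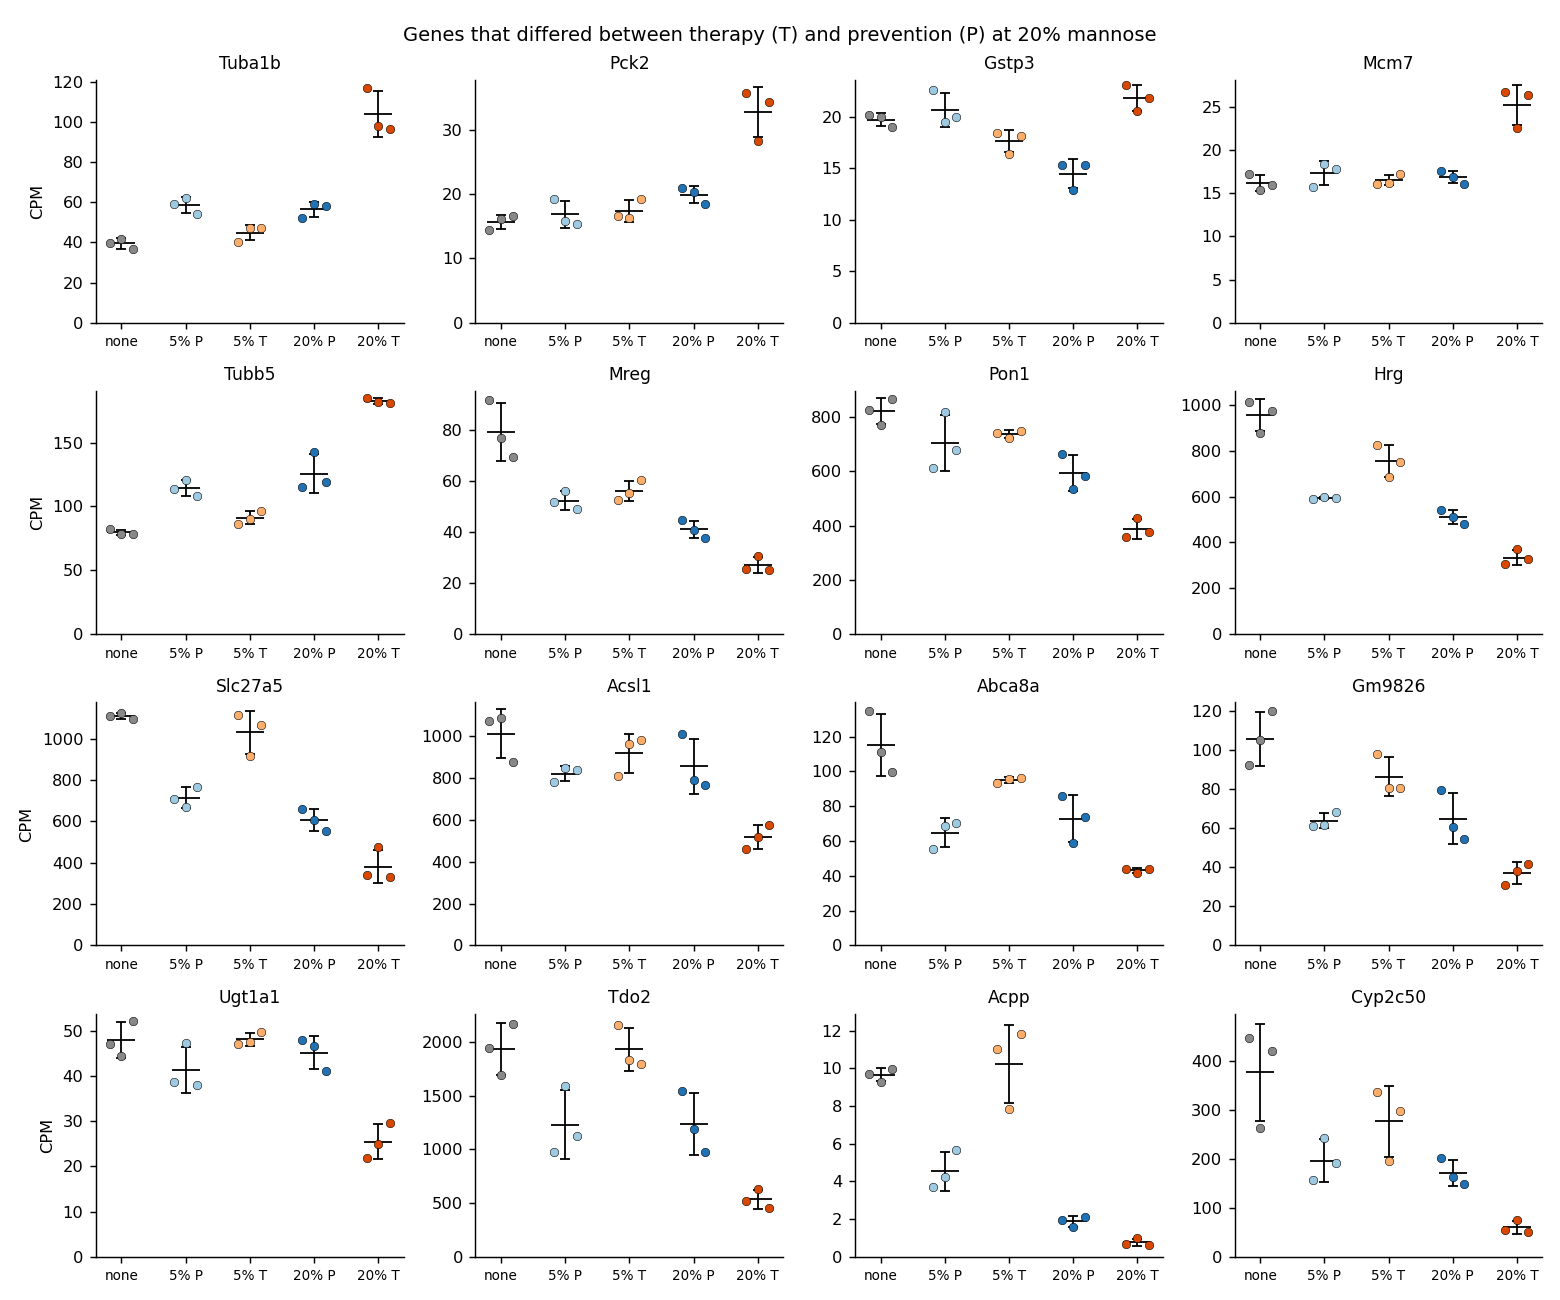
Levels in CPM of the 16 called genes in each FAT-MASH library, without mannose and with 5% or 20% mannose under prevention (P) or therapy (T); points are libraries and bars the mean ± SD (n = 3). Therapy and prevention at 20% do not overlap in any panel, and the 5 genes that were higher with therapy stand first.

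Both 20% groups are also set beside FAT-MASH, which they share as control. Prevention differed from FAT-MASH in 2952 genes (15.1% of those tested) and therapy in 4195 (21.4%), and the difference between these numbers was not tested as such. The therapy contrast also shares its therapy libraries with the comparison that chose the 16 genes, and the prevention contrast its prevention libraries, so these counts are descriptions. All 11 genes lower with therapy were called lower than FAT-MASH with therapy (11.3% of all genes), and 9 of them with prevention (8.26%), the exceptions being Ugt1a1 (-0.09 ± 0.15) and Acsl1 (-0.24 ± 0.12). Of the 5 genes higher with therapy, 4 were called higher than FAT-MASH with therapy (10.2%) and 2 with prevention (6.83%), Tuba1b and Tubb5.

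Genes of the mitotic spindle and of cytokinesis stood higher with therapy as a list, although 0 of its 40 measured members passed the test. The median log2 fold change was 1.24, all 40 had a positive difference, and in 26 every therapy library was above every prevention library (65.0%, against 8.45% of all genes). An unadjusted p under 0.05 was reached by 35 in this direction, against 5.22% of all genes. DESeq2 called 15 and limma voom 27, and edgeR called 9 without therapy replicate 2. Summed over the list, the level was 337, 316 and 300 CPM with prevention and 1005, 381 and 594 CPM with therapy, against 105 to 124 CPM in FAT-MASH livers. The sum was above prevention in each therapy library, but by little in replicate 2 and by most in replicate 1. The median moved between 0.75, without therapy replicate 1, and 1.56 as each of the 6 libraries was left out. Against FAT-MASH, 34 of the 40 were called higher with prevention (6.83% of all genes) and 39 with therapy (10.2% of all genes).

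The same division of the therapy libraries was seen gene by gene. Ube2c, the ubiquitin-conjugating enzyme of the anaphase-promoting complex, had 11.8, 9.96 and 7.57 CPM with prevention and 51.4, 15.7 and 21.8 CPM with therapy (1.60 ± 0.35, adjusted p = 0.0685 by edgeR). Aurka, the kinase of the spindle poles, had 6.37 to 8.51 CPM and 24.8, 10.5 and 12.9 CPM (1.16 ± 0.26, adjusted p = 0.0733). Birc5, survivin of the chromosomal passenger complex, had 4.46 to 5.85 CPM and 24.0, 7.55 and 11.4 CPM (1.51 ± 0.39). Mki67, the antigen of cycling cells, had 22.2 to 26 CPM and 85.8, 27.2 and 54.7 CPM (1.24 ± 0.44, adjusted p = 0.233). In the spindle checkpoint gene Mad2l1 therapy replicate 2, at 11.5 CPM, fell within the prevention range of 10.1 to 11.7 CPM, with 26.8 and 20.0 CPM in the other two. Therapy replicate 1 was the highest of the 6 libraries in all 5 of these genes and replicate 2 the lowest of the therapy libraries.

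Cyclins, kinases and inhibitors had a median of 0.38 over 26 genes, with 0 called by edgeR, 2 by DESeq2 and 5 by voom. An unadjusted p under 0.05 was reached by 8, against 5.22% of all genes, and 9 did not overlap (34.6%, against 8.45% of all genes). All of these were higher with therapy. Without therapy replicate 2 edgeR called 3. Cdk1, the mitotic kinase, had 11.0, 10.9 and 9.14 CPM with prevention and 39.6, 15.0 and 21.3 CPM with therapy (1.29 ± 0.25, adjusted p = 0.0583 by edgeR). Its partner Ccnb1 had 5.03 to 6.24 CPM and 28.7, 7.94 and 14.3 CPM (1.62 ± 0.47, adjusted p = 0.145), and FAT-MASH livers had 0.240 to 0.282 CPM. For Ccnb2 and Ccna2, cyclins of mitosis and of S phase, therapy replicate 2 lay inside the prevention range, at 5.71 and 6.69 CPM. Among the E2F, MYB and FOXM1 factors the median was 0.22 over 19 genes, with 0 called by edgeR, 1 by DESeq2, 2 by voom, and 4 higher and 2 lower at an unadjusted p under 0.05. This median was 0.10 without therapy replicate 1. Mybl1 had 35.0, 18.2 and 19.6 CPM with therapy and 11.3, 12.5 and 17.9 CPM with prevention (0.80 ± 0.24). Foxm1, the activator of mitotic genes, had 13.9, 4.82 and 9.98 CPM against 3.23 to 3.65 CPM (1.47 ± 0.51), and E2f7, a repressor of the E2F family, had 0.521 to 1.35 CPM against 0.219 to 0.353 CPM (1.94 ± 0.62).

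Of 40 DNA replication genes 1 was called, Mcm7, and the median was 0.58. With therapy 24 were higher in every library (60.0%, against 8.45% of all genes) and 1 lower, while 25 and 1 reached an unadjusted p under 0.05. The number called was 5 without therapy replicate 2, 0 without prevention replicate 1 or 2 or therapy replicate 1 or 3, and DESeq2 called 14. The summed level was 328 to 354 CPM with prevention, 317 to 345 CPM in FAT-MASH livers and 518, 403 and 493 CPM with therapy. Prevention and FAT-MASH thus overlapped in this sum and therapy lay above both. Gene by gene, 12 of the 40 were called higher than FAT-MASH with prevention (6.83% of all genes) and 3 lower (8.26%). The median of that difference was 0.53. With therapy 28 were called higher than FAT-MASH (10.2% of all genes) and 2 lower (11.3%), with a median of 0.99. The helicase subunits Mcm6 (18.9 to 30.8 CPM with therapy, 11.1 to 15.1 CPM with prevention, 0.98 ± 0.20, adjusted p = 0.0647 by edgeR) and Mcm3 (13.7 to 19.9 CPM against 6.19 to 11.0 CPM, 1.02 ± 0.20, adjusted p = 0.0583) and Prim1, the primase (8.62 to 10.2 CPM against 4.55 to 6.12 CPM, 0.89 ± 0.19), did not overlap. Mcm2 had 13.3 to 16.7 CPM against 7.57 to 9.98 CPM (0.77 ± 0.23).

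Promoters of some cell cycle genes are shown because members of these lists are known to be timed through E2F, CCAAT and CHR elements. Whether the elements take part in the differences between the schedules was not tested. Each line gives the 180 bases before the RefSeq start of the gene, 5′ to 3′ on the gene's strand, on GRCm38.p6, whose coordinates differ from the GRCm39 positions above. Capitals mark E2F elements (TTTCCCGC, TTTGCCGC, TTTCGCGC or TTTGGCGC), CCAAT boxes and CHR elements (TTTGAA), on either strand; overlapping matches form 1 run.
Cdc20, chr4:118437344-118437523, minus strand: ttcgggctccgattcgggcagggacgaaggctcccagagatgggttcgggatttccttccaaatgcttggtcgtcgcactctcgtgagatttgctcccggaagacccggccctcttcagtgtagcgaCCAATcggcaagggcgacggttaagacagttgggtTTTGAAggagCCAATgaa
Cdk1, chr10:69352913-69353092, minus strand: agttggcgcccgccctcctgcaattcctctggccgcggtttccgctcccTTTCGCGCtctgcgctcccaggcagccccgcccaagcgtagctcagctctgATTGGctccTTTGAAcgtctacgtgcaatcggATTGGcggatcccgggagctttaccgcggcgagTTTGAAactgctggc
Mcm6, chr1:128359706-128359885, minus strand: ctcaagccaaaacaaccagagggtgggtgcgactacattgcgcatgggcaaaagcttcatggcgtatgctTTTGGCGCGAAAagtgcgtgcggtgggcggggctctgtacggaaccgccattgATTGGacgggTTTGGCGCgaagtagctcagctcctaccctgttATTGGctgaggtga
Mcm7, chr5:138171884-138172063, minus strand: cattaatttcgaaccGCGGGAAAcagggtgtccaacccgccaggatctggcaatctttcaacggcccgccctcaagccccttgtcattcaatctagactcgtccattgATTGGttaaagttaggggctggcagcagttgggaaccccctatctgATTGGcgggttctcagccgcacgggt
Cdc20, the activator of the anaphase-promoting complex, holds a CHR element with a CCAAT box on either side of it, and Cdk1 holds 2 CHR elements, 2 CCAAT boxes and 1 E2F element. The replication genes Mcm6 and Mcm7 hold E2F elements and CCAAT boxes and no CHR element in this window. Over the 250 bases before the start, 14 of the 39 mitotic promoters matched in RefSeq held a CHR element (35.9%), against 4 of 37 replication promoters (10.8%) and 16% of all 32851 promoters. An E2F element stood in 0 of 39 and 9 of 37 (24.3%), against 1.86% of all. CCAAT boxes stood in 69.2% and 56.8%, against 33.8%. The 11 promoters of genes called lower with therapy held a CHR element in 4 cases (36.4%), an E2F element in 0 and a CCAAT box in 63.6%. The 6 promoters of genes called higher held a CHR element in 1 case (16.7%), an E2F element in 1 and a CCAAT box in 66.7%. These are matches of letters, not measured binding.

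The lists of hepatocyte function described below had medians under 0, therapy minus prevention. Male-biased STAT5 genes (-0.18 over 20) and circadian clock genes (-0.24 over 17) did too. Acute phase genes (0.10 over 23), glucocorticoid-responsive genes (0.20 over 14) and gluconeogenesis genes (0.02 over 15) did not. In bulk liver, fewer cells of a type and less of its RNA per cell cannot be told apart. Of 15 hepatocyte markers 1 was called (Tdo2; 0 without prevention replicate 1 or therapy replicate 1 or 3), the median was -0.30, and 8 were lower in every therapy library (53.3%, against 8.69% of all genes). Their summed level was 123837, 114512 and 100030 CPM with prevention and 89679, 91785 and 84132 CPM with therapy, against 118777 to 132740 CPM in FAT-MASH livers. Alb alone had 74659, 70293 and 60487 CPM with prevention and 53201, 52899 and 46748 CPM with therapy (-0.43 ± 0.12, adjusted p = 0.118 by edgeR). The therapy libraries lay below those of prevention and FAT-MASH in both values. Beside this, the list of cholangiocyte markers had a median of 0.65 over 15 genes, with 0 called by edgeR, DESeq2 or voom, 1 at an unadjusted p under 0.05 and 0 without overlap. That median was 0.43 without prevention replicate 1 or 2, 1.03 without therapy replicate 2 (1 called) and 0.22 without therapy replicate 3. Its part in the hepatocyte result was not tested.

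The factors that set hepatocyte identity were lower with therapy in 10 of 19 cases without overlap (52.6%), with a median of -0.25. None passed edgeR's test, 0 of 19, and 9 were at an unadjusted p under 0.05, all lower, against 6.60% of all genes in that direction. DESeq2 and voom each called 3. Hnf4a, the nuclear receptor at the head of the hepatocyte programme, had 630, 657 and 515 CPM with prevention and 413, 465 and 429 CPM with therapy (-0.46 ± 0.11, adjusted p = 0.075 by edgeR). FAT-MASH livers had 573 to 650 CPM, so prevention overlapped them and therapy did not. Cebpa, a factor of mature hepatocytes, had 410 to 516 CPM and 254 to 345 CPM (-0.60 ± 0.13, adjusted p = 0.0733). Tbx3, a factor of pericentral hepatocytes, had 40.2 to 65.0 CPM and 19.7 to 35.2 CPM (-0.95 ± 0.25).

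Cytochromes that handle drugs and other foreign compounds had the lowest median of the lists described here, -0.56 over 27 genes. Cyp2c50 was the 1 that passed, and 11 were lower in every therapy library (40.7%, against 8.69% of all genes) and 0 higher. An unadjusted p under 0.05 was reached by 16, all lower, against 6.60% of all genes in that direction. The number called was 0 without prevention replicate 1 or therapy replicate 1 or 3, 2 without prevention replicate 2 and 3 without therapy replicate 2. Cyp2e1, which turns carbon tetrachloride into its toxic radical, had 2889, 2061 and 2617 CPM with prevention and 1158, 1417 and 1689 CPM with therapy (-0.83 ± 0.17, adjusted p = 0.0685 by edgeR). FAT-MASH livers had 4265 to 5141 CPM, above both. Cyp2c54 had 29.2 to 40.2 CPM and 7.60 to 17.6 CPM (-1.56 ± 0.31, adjusted p = 0.0647), and Cyp3a25 had 537 to 730 CPM and 400 to 410 CPM (-0.59 ± 0.15). The summed cytochrome level was 15233 to 19212 CPM with prevention and 11677 to 11965 CPM with therapy.

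Bile acid genes had a median of -0.38 over 24 genes, with Slc27a5 called. In every therapy library 10 were lower (41.7%, against 8.69% of all genes). The number called was 3 without therapy replicate 2 and 0 with any other of the 6 libraries left out. Slco1b2, the uptake carrier, had 858 to 1128 CPM with prevention and 554 to 723 CPM with therapy (-0.66 ± 0.14, adjusted p = 0.0685 by edgeR). Abcb11, the bile salt export pump, had 674 to 912 CPM and 484 to 598 CPM (-0.53 ± 0.12, adjusted p = 0.075), and Akr1d1, a reductase of the synthesis route, had 91.6 to 109 CPM and 58.5 to 76.7 CPM (-0.61 ± 0.15). Cyp7a1, the rate-limiting enzyme, had 135, 75.5 and 157 CPM with prevention and 66.1, 61.2 and 79.4 CPM with therapy. The groups overlapped and the difference did not pass (-0.83 ± 0.29, adjusted p = 0.227).

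Amino acid breakdown had a median of -0.22 over 33 genes, with Tdo2 called. In every therapy library 12 were lower (36.4%, against 8.69% of all genes) and 1 higher. Without prevention replicate 1 the median was -0.13; 0 were called without it or therapy replicate 1 or 3, and 2 without therapy replicate 2. Hal, which removes ammonia from histidine, had 145 to 213 CPM with prevention and 53.7 to 118 CPM with therapy (-0.97 ± 0.24, adjusted p = 0.0886 by edgeR). Sardh, of sarcosine breakdown, had 412 to 482 CPM and 294 to 344 CPM (-0.50 ± 0.13). Complement and clotting factors had a median of -0.19 over 32 genes, with 0 called by edgeR, 6 by DESeq2 and 7 by voom. In every therapy library 12 were lower (37.5%, against 8.69% of all genes), and 10 were lower at an unadjusted p under 0.05. The median was -0.12 without prevention replicate 1 and -0.11 without therapy replicate 1. In the settings other than a left-out library it ran from -0.24 to -0.06. F13b, a subunit of clotting factor XIII, had 170 to 217 CPM and 127 to 142 CPM (-0.48 ± 0.10, adjusted p = 0.0685). Genes of the periportal and pericentral zones of the lobule had medians of -0.27 and -0.20 over 18 genes each, with 0 called by edgeR in either, 7 and 8 lower at an unadjusted p under 0.05, 4 and 3 called by DESeq2, and 4 in each by voom. The periportal median was -0.14 without prevention replicate 1, and 2 genes were called without therapy replicate 2. The pericentral median was -0.08 without therapy replicate 1 and -0.31 without prevention replicate 2, where 1 gene was called.

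Fatty acid oxidation genes, many of them targets of PPAR alpha, had a median of -0.24 over 26 genes. In every therapy library 12 were lower (46.2%, against 8.69% of all genes) and 0 higher. edgeR called 0 of them and DESeq2 and voom 4 each, and 12 were lower at an unadjusted p under 0.05. Ehhadh, of peroxisomal beta-oxidation, had 1823, 1976 and 1402 CPM with prevention and 888, 838 and 1037 CPM with therapy (-0.91 ± 0.19, adjusted p = 0.0685 by edgeR). FAT-MASH livers had 607 to 806 CPM, and Ehhadh was called higher than FAT-MASH with prevention (1.23 ± 0.19) and not with therapy (0.32 ± 0.19). Cyp4a10, a fatty acid omega-hydroxylase with close copies, had 475 to 551 CPM and 226 to 277 CPM (-0.98 ± 0.23, adjusted p = 0.0783).

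**Figure D3:**
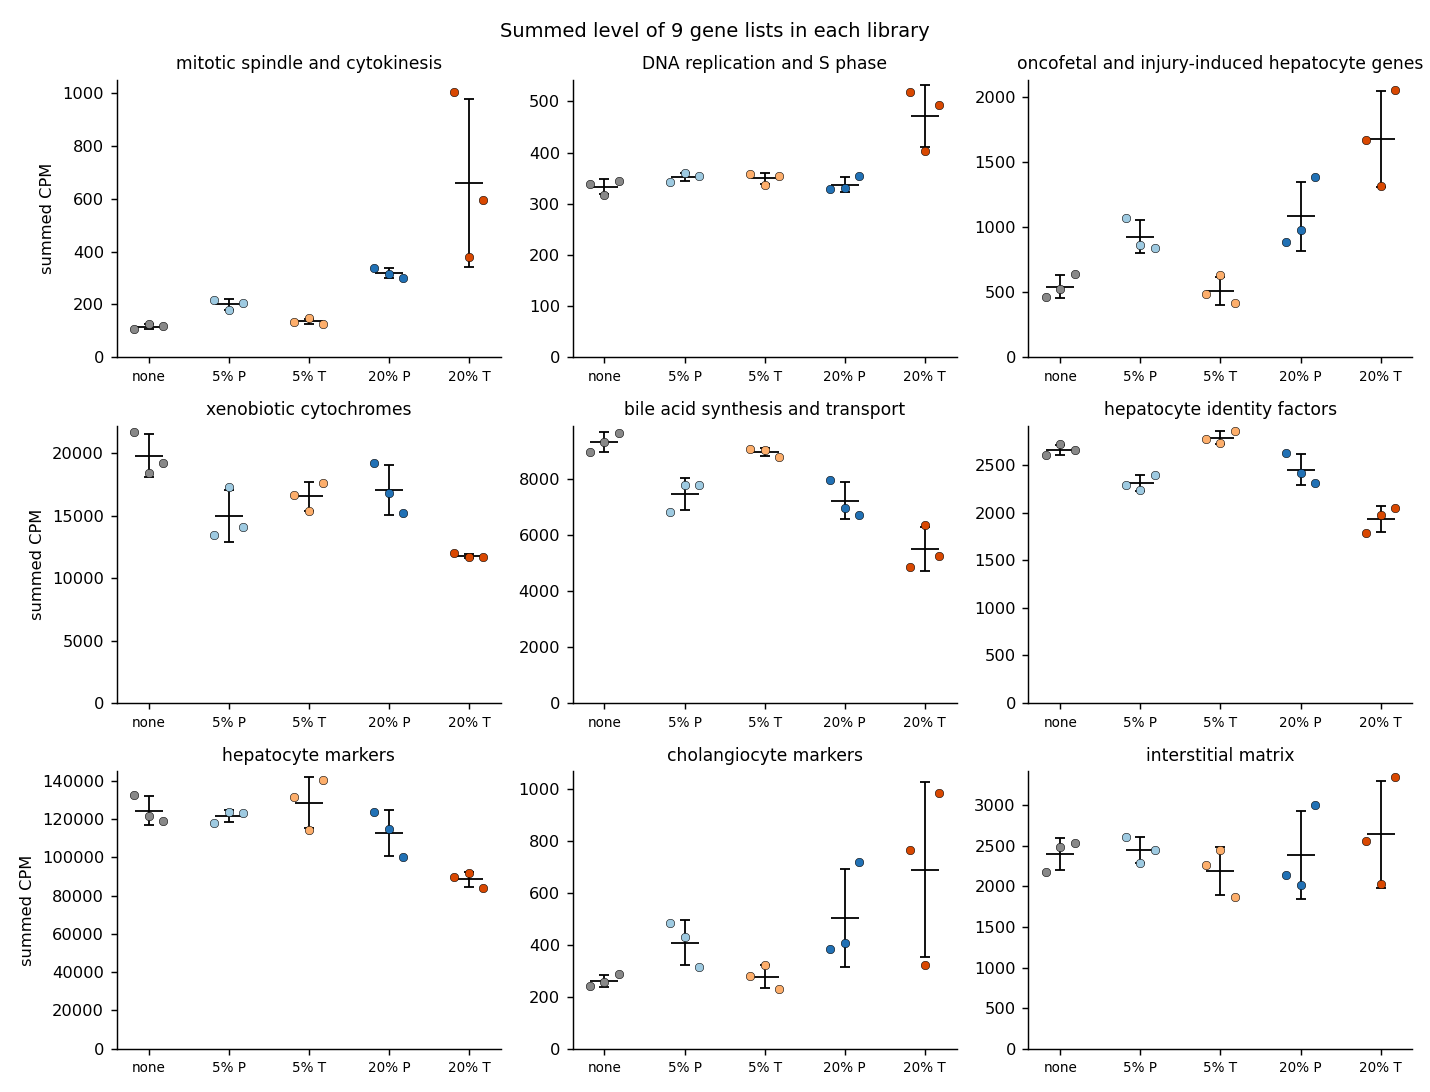
Summed CPM of 9 gene lists in each FAT-MASH library, by mannose dose and schedule (P, prevention; T, therapy); points are libraries and bars the mean ± SD (n = 3). The mitotic sum was 300 to 337 CPM with 20% prevention and 381 to 1005 CPM with 20% therapy, while the hepatocyte marker sum was lower in each 20% therapy library than in each 20% prevention library.

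The enzymes that take up and split sugar were close between the schedules. Khk, ketohexokinase, had 392, 392 and 336 CPM with prevention and 356, 490.0 and 336 CPM with therapy, a difference of 0.08 ± 0.17 (95% interval -0.28 to 0.43), both below the 809 to 838 CPM of FAT-MASH livers. Tkfc, triokinase, differed by 0.11 ± 0.15 (-0.20 to 0.43). The glucose carrier gene Slc2a2 differed by -0.16 ± 0.14 and the fructose carrier gene Slc2a5, at 0.941 to 2.47 CPM in the 6 libraries, by -0.19 ± 0.36. In the list of 12 fructose genes 0 were called by edgeR and 1 by DESeq2 and by voom. Lower in every therapy library (16.7%, against 8.69% of all genes) and at an unadjusted p under 0.05 were 2. The median of -0.15 was -0.07 without prevention replicate 1 or 3 or therapy replicate 1. The 2 genes were Sord, sorbitol dehydrogenase (855 to 925 CPM with prevention, 639 to 727 CPM with therapy, -0.39 ± 0.09), and Slc2a9, a urate and hexose carrier (28.9 to 36.0 CPM and 24.6 to 28.3 CPM, -0.34 ± 0.10). Pklr, liver pyruvate kinase, differed by 0.19 ± 0.21, and Mlxipl, the sugar-sensing factor ChREBP, by -0.36 ± 0.20.

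The genes that handle mannose itself did not differ detectably either. Mpi, phosphomannose isomerase, had 14.4 to 15.1 CPM with prevention and 13 to 17.6 CPM with therapy (0.02 ± 0.15, 95% interval -0.29 to 0.33). Both were called higher than the 8.45 to 11.7 CPM of FAT-MASH livers, by 0.59 ± 0.15 and 0.61 ± 0.15. Pmm2, a phosphomannomutase, had 41.6 to 43.7 CPM and 41.8 to 44.3 CPM (-0.00 ± 0.10, -0.20 to 0.20). Pmm1, the other phosphomannomutase, had 2.32 to 3.68 CPM and 2.42, 8.73 and 2.44 CPM, and its difference of 0.64 ± 0.41 was -0.25 without therapy replicate 2. Over the 20 mannose and GDP-sugar enzymes the median was 0.09 and 0 were called by edgeR, DESeq2 or voom, with 2 higher and 1 lower at an unadjusted p under 0.05. This median was 0.05 without prevention replicate 1 and 0.14 without prevention replicate 2. Nans, which makes sialic acid, was higher in every therapy library (27.9 to 31 CPM against 21.6 to 23.0 CPM, 0.39 ± 0.12, adjusted p = 0.173 by edgeR).

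Lipid synthesis genes had medians of 0.18 over 23 lipogenic and 0.20 over 25 cholesterol genes, with 0 called by edgeR and 1 by DESeq2 and by voom in each. In every therapy library 6 and 9 were higher (26.1% and 36.0%, against 8.45% of all genes) and 1 and 1 lower. At an unadjusted p under 0.05, 4 and 6 were higher, against 5.22% of all genes, and 1 and 0 lower. The cholesterol median was 0.13 without therapy replicate 2. Sqle, squalene epoxidase, had 6.63, 8.47 and 9.05 CPM with prevention and 16, 19.4 and 17.0 CPM with therapy (1.11 ± 0.24, adjusted p = 0.0685 by edgeR). FAT-MASH livers had 4.14 to 6.45 CPM, and therapy was called higher than FAT-MASH (1.67 ± 0.25) while prevention was not (0.56 ± 0.25). Dhcr7, of the last step, had 63.2 to 68.4 CPM against 45.5 to 49.8 CPM (0.46 ± 0.19). Pnpla3, a lipid droplet lipase, had 7.64 to 8.77 CPM against 2.63 to 3.34 CPM (1.47 ± 0.33, adjusted p = 0.0733), and Acly, ATP citrate lyase, had 265 to 370 CPM against 195 to 230 CPM (0.56 ± 0.23). Fasn, fatty acid synthase, overlapped (0.42 ± 0.29), as did Scd1, the desaturase (-0.13 ± 0.19). The stress hormone genes were 0.25 ± 0.47 apart for Fgf21, with overlap, and 0.62 ± 0.24 for Gdf15, at 44.8 to 64.3 CPM with therapy and 29.1 to 38.9 CPM with prevention (adjusted p = 0.289).

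Oncofetal and injury-induced hepatocyte genes had a median of 0.47 over 26, with 0 called by edgeR, 2 by DESeq2 and 6 by voom. In every therapy library 7 were higher (26.9%, against 8.45% of all genes), and 7 were higher at an unadjusted p under 0.05 (5.22% of all genes). The median was 0.18 without therapy replicate 3, 0.28 without prevention replicate 1 and 0.80 without prevention replicate 3, and edgeR called 1 gene without therapy replicate 2. Ly6d, a surface protein of injured hepatocytes, had 95.6, 115 and 114 CPM with prevention and 197, 231 and 251 CPM with therapy (1.07 ± 0.31, adjusted p = 0.135 by edgeR). The annexin genes Anxa2 (84.3 to 136 CPM and 179 to 235 CPM, 0.88 ± 0.26) and Anxa5 (301 to 352 CPM and 404 to 490.0 CPM, 0.47 ± 0.15) did not overlap either. Afp, alpha-fetoprotein, stayed at 3.30 to 5.23 CPM over the 6 libraries (0.11 ± 0.26). Lcn2, an acute phase gene, had 39.3 to 73.3 CPM with prevention and 245, 57.2 and 216 CPM with therapy (1.52 ± 0.49), with replicate 2 inside the prevention range.

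Lists of scar, inflammation and macrophage genes had 0 members called by edgeR or DESeq2, while voom called 1 interstitial matrix, 1 basement membrane and 1 macrophage gene. In them 3 interstitial matrix, 2 basement membrane, 3 inflammatory and 2 macrophage genes were higher at an unadjusted p under 0.05. Over all genes the share was 5.22%. Interstitial matrix genes had a median of 0.34 over 32, and 1 of them, Tnc, was higher in every therapy library (5.90 to 11.1 CPM against 2.10 to 5.48 CPM, 0.99 ± 0.39). That median was 0.01 without therapy replicate 3, 0.15 and 0.11 without prevention replicates 1 and 2, 0.89 without prevention replicate 3 and 0.72 without therapy replicate 2. Col1a1, the main fibrillar collagen gene, had 28.6, 26.9 and 108 CPM with prevention and 90.2, 36.7 and 150 CPM with therapy (0.76 ± 0.52), the high values being those of the libraries rich in bile duct markers. Epcam, one of those markers, had 8.51, 9.98 and 22.6 CPM and 25.6, 6.16 and 35.4 CPM, and Spp1, which bile duct cells and macrophages both make, had 176, 179 and 465 CPM and 486, 135 and 668 CPM. Krt19 (0.09 ± 0.45), Timp1 (0.92 ± 0.56) and Acta2 (0.82 ± 0.50) overlapped. So did Cldn7 (1.02 ± 0.42), another epithelial marker. Whether bile duct cells take part in the matrix values was not tested.

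Basement membrane genes had a median of 0.18 over 21, which was -0.00 without therapy replicate 3, 0.07 and 0.06 without prevention replicates 1 and 2, 0.43 without prevention replicate 3 and 0.42 without therapy replicate 2. Nid1, nidogen, had 56.2 to 66.6 CPM with prevention and 76.6 to 103 CPM with therapy (0.56 ± 0.18), and Col4a1 overlapped (0.48 ± 0.23). Markers of lipid-associated macrophages had a median of 0.18 over 20. Without prevention replicates 1, 2 and 3 in turn it was -0.02, 0.04 and 0.63, and without therapy replicates 1, 2 and 3 it was 0.34, 0.30 and -0.04. Trem2 (0.16 ± 0.60) and Gpnmb (-0.44 ± 1.01) overlapped widely, prevention replicate 3 being the highest in both, at 23.9 and 92.6 CPM. Cd9 did not overlap (58.2 to 68.1 CPM and 78.7 to 82.5 CPM, 0.34 ± 0.14), and Cd63 did (0.71 ± 0.26). Inflammatory signalling had a median of 0.24 over 32 (0.07 and 0.42 without prevention replicates 1 and 2, 0.12 without therapy replicate 1). In it 3 genes were higher in every therapy library (9.38%), close to the 8.45% of all genes. Among them was Cd14, the co-receptor of endotoxin (10.4 to 25.9 CPM and 26.5 to 39.7 CPM, 0.87 ± 0.32). The inhibitor Tnfaip3 overlapped (0.61 ± 0.28). Stellate cell markers had a median of 0.23 over 17 (0.12 without prevention replicate 1, 0.05 without therapy replicate 3), with 0 higher and 1 lower in every therapy library and at an unadjusted p under 0.05. edgeR and voom called 0 of them and DESeq2 1, lower.

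The timing difference was then set beside that at 5% mannose, which shares no library with it. At 5%, 38 genes (0.194%) differed between therapy and prevention, 17 higher (0.0869%) and 21 lower (0.107%). This count was 6 without 5% prevention replicate 1 or 3, 2 without 5% therapy replicate 1, 10 without replicate 3 and 201 without replicate 2. The difference between the doses was tested in the same fit as an interaction, the timing difference at 20% minus that at 5%. It passed in 424 genes (2.17%), 196 positive and 228 negative. In 422 of the 424 the timing difference had opposite signs at the doses, against 56.9% of all genes tested; choosing genes for a large difference between the doses itself favours opposite signs. Of them 195 were higher with therapy at 20% and lower at 5%, and 227 the reverse. The interaction contains the 20% difference itself, so genes called at 20% are favoured in it. Of the 16 genes called at 20%, 15 passed this test, the exception being Pck2 (adjusted p = 0.0538 by edgeR). The count fell to 72 without 5% prevention replicate 1, 119 without 20% therapy replicate 1, 129 without 20% prevention replicate 1, 185 and 218 without 5% therapy replicates 3 and 1, and 272 without 5% prevention replicate 3 or 20% therapy replicate 3. Scaled by totals only, the median of all genes was 0.21 and the split 601 positive and 121 negative.

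**Figure D4:**
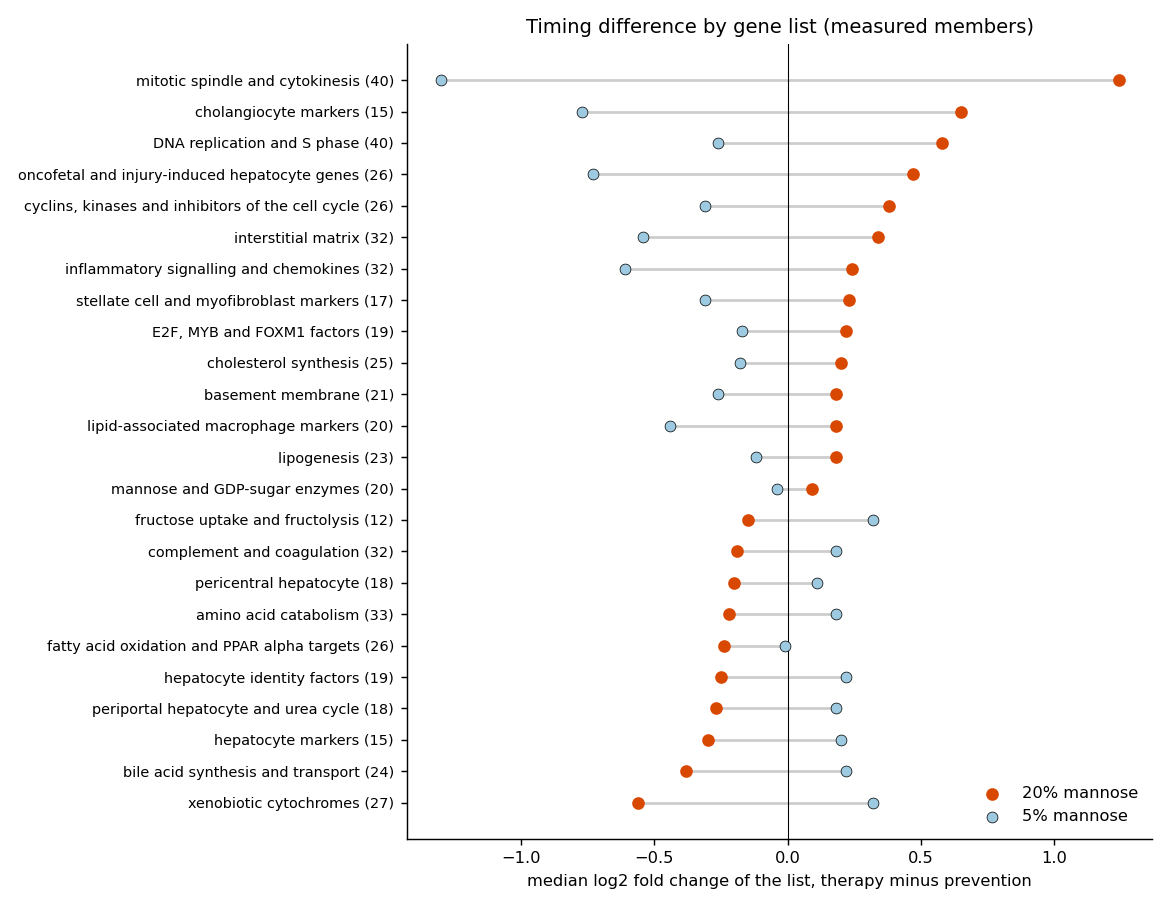
Median log2 fold change, therapy minus prevention, of 24 gene lists at 20% mannose (orange) and at 5% mannose (pale blue), with the number of measured members in parentheses. The mitotic list had a median of 1.24 at 20% and -1.30 at 5%, and the xenobiotic cytochromes -0.56 and 0.32; each list's medians lie on opposite sides of 0 at the doses except for fatty acid oxidation (-0.24 and -0.01).

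Mitotic genes carried the highest share of positive interactions, 23 of 40 (background 1.00%), with a median timing difference of 1.24 at 20% and -1.30 at 5%. The count was 3 without 20% therapy replicate 1, 4 without 5% prevention replicate 1, 9 without 20% prevention replicate 1, 11 to 15 without 5% prevention replicate 3, 20% prevention replicate 2 or 5% therapy replicates 1 and 3, and the median interaction stayed between 2.00 and 2.90. Ube2c was called in each of the 20 other settings; it had 2.49 to 4.96 CPM with 5% prevention and 1.03 to 1.62 CPM with 5% therapy, the reverse of its order at 20% (interaction 3.08 ± 0.53, adjusted p = 0.00677 by edgeR). Cdk1 (1.84 ± 0.36), Mad2l1 (1.57 ± 0.30) and Ccnb2 (3.14 ± 0.60) also passed in all 20. Replication genes passed in 10 of 40 cases and 1 was negative, with 2 to 6 without any 1 of 8 libraries, among them 5% prevention replicate 1 and 20% therapy replicate 1 (2 each).

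Lists of hepatocyte function held some of the 228 negative interactions, against a background of 1.16% of all genes. They passed in 7 of 27 cytochromes, 7 of 24 bile acid genes, 7 of 33 amino acid genes, 6 of 19 identity factors, 4 of 32 complement and clotting genes and 4 of 15 hepatocyte markers. Without 5% prevention replicate 1 these counts were 3, 2, 1, 0, 0 and 1, without 20% prevention replicate 1 they were 4, 2, 2, 1, 0 and 1, and without 20% therapy replicate 1 they were 4, 2, 3, 0, 0 and 1. Leaving out 5% therapy replicate 1 gave 4, 3 and 3 for the first 3 lists, and 1 for complement and 2 for the markers. With any of the other 8 left out the first 3 counts were at least 4, and that of complement and clotting genes was 1 to 7. Other lists held called negative interactions too, among them 3 of 17 circadian clock genes and 2 of 12 fructose genes. The periportal and pericentral lists held 2 of 18 each. In the clock list 1 gene was called positive. Tdo2 had 974, 1589 and 1121 CPM with 5% prevention and 2160, 1833 and 1799 CPM with 5% therapy, so at 5% the therapy libraries were the higher ones (interaction -1.86 ± 0.25, adjusted p = 0.00242 by edgeR). Acpp was the 1 gene called in opposite directions at the doses, at 3.69 to 5.69 CPM with 5% prevention and 7.86 to 11.8 CPM with 5% therapy (1.17 ± 0.21 at 5%).

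Cyp7a1 had the most negative interaction among the genes that passed with a mean of at least 5 CPM. It had 41.5, 29.2 and 29.6 CPM with 5% prevention and 123, 157 and 91.6 CPM with 5% therapy, a called rise of 1.89 ± 0.30, against the -0.83 ± 0.29 at 20% (interaction -2.72 ± 0.42, adjusted p = 0.00428 by edgeR). Etnppl, an ethanolamine phosphate lyase (47.8, 49.3 and 25.2 CPM with 20% therapy, 53.7 to 121 CPM with 20% prevention), Tiam2, a Rac exchange factor (1.54 to 3.52 CPM and 5.03 to 5.93 CPM), Cyp2c54 and Cyp2c50 followed. The most positive were Vmn2r3, a gene of the vomeronasal receptor family (9.32 to 25 CPM with 20% therapy, 4.41 to 5.83 CPM with 20% prevention, 0.229 to 0.620 CPM in FAT-MASH), and Chrna4, a nicotinic receptor subunit (9.79 to 21.7 CPM and 3.44 to 4.91 CPM). The spindle genes Tpx2 and Hmmr and Ccnb1 completed them. In each of these 5 the order of the schedules was reversed at 5%, with overlap there for Chrna4 (8.06 to 30.7 CPM with prevention, 3.56 to 10.1 CPM with therapy) and for Ccnb1 (0.905 to 2.28 CPM and 0.136 to 0.960 CPM).

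**Figure D5:**
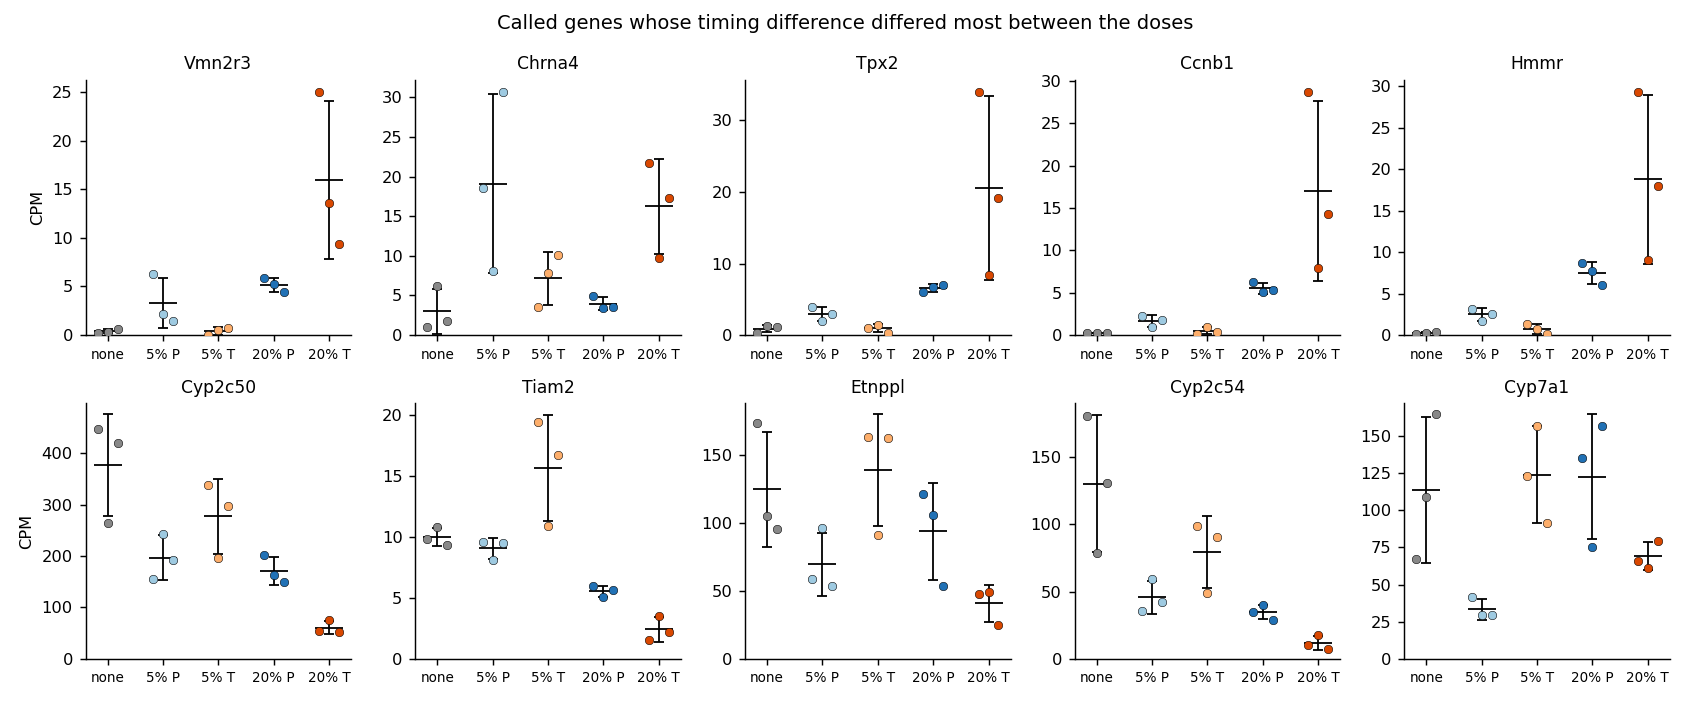
Levels in CPM of the 10 genes with the most positive (top row) and most negative (bottom row) interaction of timing and dose among genes that passed with a mean of at least 5 CPM, in FAT-MASH livers without mannose and with 5% or 20% mannose under prevention (P) or therapy (T); points are libraries and bars the mean ± SD (n = 3). Cyp7a1 is lower with prevention than with therapy at 5% mannose (29.2 to 41.5 against 91.6 to 157 CPM); its 20% groups overlap (75.5 to 157 against 61.2 to 79.4 CPM).

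The injury-induced list passed in 6 of 26 cases in the positive direction (1.00% of all genes), and in 10 without 20% therapy replicate 2. Anxa5 was called lower with therapy at 5% (-0.81 ± 0.16) and had the opposite sign at 20% (interaction 1.28 ± 0.22, adjusted p = 0.00677 by edgeR). Mybl1 was also called lower with therapy at 5% (-1.83 ± 0.26) and had 0.80 ± 0.24 at 20%. Interstitial matrix, macrophage and bile duct lists had interaction medians of 1.00, 0.77 and 1.66 with 0 called by edgeR, 1 each by DESeq2 and 10, 2 and 3 by voom, and 13, 4 and 9 positive at an unadjusted p under 0.05 (7.60% of all genes). With 1 library left out edgeR called up to 10, 1 and 6 of them. The medians then ran from 0.68 to 1.43, 0.47 to 1.12 and 1.19 to 2.00. Of the sugar genes, Sord (-0.72 ± 0.13) and Slc2a9 (-0.88 ± 0.14) passed, and Slc2a9 was called higher with therapy at 5% (0.54 ± 0.10).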

How the data were processed

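Messenger RNA of mouse liver was taken with poly-T beads and sequenced. Reads were aligned with STAR to GRCm39 and assigned to genes by featureCounts (2.0.6 per the submitters' processing notes, 2.0.1 with GENCODE M31 per the file headers). The deposited values are whole-number counts for 56980 genes, of which 52073 carry a symbol, and the authors had not normalized them. Neither strand nor pairing is set in the command line, per the file headers. Among counts from 1 to 19, 77.91% were even, so totals are given as reads and not fragments. Mitochondrial genes had 0 counts.

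Counts of the 18 first-batch libraries, 6 groups of 3, were fitted together with edgeR 4.0.16 in R 4.3.3 (glmQLFit and glmQLFTest, TMM scaling, filterByExpr, Benjamini-Hochberg adjustment, threshold 0.05), without a replicate block. These groups included the 3 mice on a normal diet without mannose, whose spread entered the shared estimate. The second-batch libraries of the series were all from mice on a normal diet, with or without mannose. CPM values are TMM-scaled, SE is the size of the log2 fold change divided by the root of its F, and intervals are 95%. The test was tried on simulated counts. Lists were described by counts and medians and not tested. No 2 libraries of a 20% schedule were as alike as sampling noise would make them (chi-square per degree of freedom at least 25). The labels call the replicates biological and do not give cages, so p-values measure only the spread between these samples.

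The members and lists were chosen with earlier results of these data known. Genes named are from 28 key genes, up to 10 largest rises and 10 largest falls past the threshold (mean of at least 5 CPM, no overlap between libraries, predicted and clone names left out), up to 4 list members with the smallest p, the 5 largest interactions of each sign (mean of at least 5 CPM over 12 libraries), and every gene of a count of 5 or fewer; some of these are not reported here. Promoters are from RefSeq on GRCm38.p6. Alternatives were DESeq2 1.42.0, voom of limma 3.58.1 with quality weights, RLE factors, totals only, no filter, fitting only the groups of a comparison, adding the 7 second-batch libraries with a term for batch, the replicate block, and each library left out.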

Additional observations from a re-analysis of the deposited data

Results flagged for a closer look

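The difference between therapy and prevention itself differed between 20% and 5% mannose, by the interaction in edgeR's fit with Benjamini-Hochberg adjustment, in 424 genes. Among the genes named, the interaction (timing difference at 20% minus that at 5%, log2) was positive for the spindle and cyclin genes Ube2c (3.08), Tpx2 (3.32), Hmmr (3.16), Ccnb1 (3.30), Ccnb2 (3.14), Ccna2 (2.84), Mki67 (2.59), Birc5 (2.58), Cdk1 (1.84), Aurka (1.60) and Mad2l1 (1.57) and for Mybl1 (2.63). It was also positive for the replication genes Mcm6 (1.69), Mcm2 (1.61), Prim1 (1.40), Mcm3 (1.31) and Mcm7 (0.64) and for the tubulin genes Tubb6 (1.42), Tuba1b (1.26) and Tubb5 (0.86).

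Other positive values were those of Vmn2r3 (4.43), Chrna4 (3.45), Lcn2 (2.80), Pnpla3 (2.52), Ly6d (2.22), Anxa2 (1.98), Sqle (1.97), Tnfaip3 (1.61), Gdf15 (1.37), Anxa5 (1.28), Nid1 (1.04), Gstp3 (0.82) and Nans (0.69).

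The interaction was negative for the cytochromes Cyp7a1 (-2.72), Cyp2c54 (-2.36), Cyp2c50 (-2.0), Cyp2e1 (-1.25) and Cyp3a25 (-1.22), for Tdo2 (-1.86), Hal (-1.71) and Sardh (-0.89) of amino acid breakdown, and for the factors Tbx3 (-1.69), Cebpa (-0.94) and Hnf4a (-0.70). It was negative too for Acpp (-2.46), Etnppl (-2.20), Car1 (-2.19), Tiam2 (-2.0), Abca8a (-1.31), Gm9826 (-1.24), Slc27a5 (-1.20), Ugt1a1 (-1.05), Slco1b2 (-0.98), Hrg (-0.96), Acsl1 (-0.89), Slc2a9 (-0.88), Sord (-0.72), Mreg (-0.70), Pon1 (-0.68) and F13b (-0.60). Car1, a carbonic anhydrase of red cells, had 1.33 to 2.17 CPM with 20% prevention and 0.478 to 0.775 CPM with 20% therapy. Its list of erythroid markers had 0 of 10 measured members called at 20% by edgeR, 2 by DESeq2 and 0 by voom, with 3 lower at an unadjusted p under 0.05. The summed level of the list was 343 to 522 CPM with prevention and 289 to 538 CPM with therapy, and its part in the Car1 value was not tested.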

How the results depend on the processing

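The number of genes called, 16 for the timing difference at 20%, was 436 with DESeq2, 483 with voom, 702 with no filter, 183 scaled by totals only, 26 with all 25 libraries, 1 to 111 with a library left out, and 0 by edgeR with the 6 libraries alone (2266 at an unadjusted p under 0.05). At 5% (38) it was 354 with DESeq2, 136 with voom, 862 with no filter, 5 with the groups compared alone and 2 to 201 with a library left out. For the interaction (424) these were 1050, 1043, 1364, 280 and 72 to 583, and 722 by totals. Against FAT-MASH, prevention (2952) gave 1938 to 2476 and therapy (4195) 3072 to 3770 with a library left out, and therapy 6520 by totals. Scaling by totals moved the splits of higher and lower to 3066 and 949 for prevention (from 1336 and 1616), 5407 and 1113 for therapy (from 1989 and 2206), and 8 and 26 at 5% (from 17 and 21), with medians of all genes of 0.20, 0.30 and -0.09. All 25 libraries gave 124 positive and 235 negative interactions. The cause was not tested in any of these.

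With the replicate number as a block the counts were 3 at 20%, 17 at 5% and 332 for the interaction. Same-numbered libraries at 20% had correlations of deviations of -0.076, 0.08 and 0.179, and differently numbered ones of -0.216 to 0.151. Whether the numbers pair the samples was not settled by these values.

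Differences that did not pass changed sign in some settings. With voom Khk was -0.03, Pmm2 0.02 and Gpnmb 0.15. Pmm2 was 0.12 by totals, 0.02 in the 6 libraries and 0.01 in all 25, and the pericentral interaction median was 0.06 by totals. With each library left out, the log2 difference ranged from -0.11 to 0.19 for Khk, -0.04 to 0.23 for Tkfc, -0.80 to 0.25 for Slc2a5, -0.11 to 0.12 for Mpi, -0.25 to 0.95 for Pmm1, -0.02 to 0.02 for Pmm2, -0.14 to 0.73 for Fgf21, -0.15 to 0.89 for Trem2, -0.86 to 0.69 for Gpnmb, -0.34 to 0.62 for Krt19 and -0.03 to 0.21 for Afp. The median ranged from -0.00 to 0.43 for basement membrane and -0.04 to 0.63 for lipid-associated macrophages. In the settings other than a left-out library, medians of the hepatocyte lists at 20% shrank but kept their sign. The smallest were -0.06 for complement and clotting, -0.07 pericentral, -0.10 amino acid breakdown and -0.12 fatty acid oxidation. For identity factors it was -0.13, periportal genes -0.15, hepatocyte markers -0.16, bile acid genes -0.26 and cytochromes -0.42. Of the other values of single genes, 2079 kept direction and side of the threshold, 172 passed it newly and 281 no longer passed it.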

Other observations

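Immediate early genes, which cells switch on within minutes of a growth factor or stress signal, were summed at 429, 492 and 445 CPM with 20% prevention and at 706, 599 and 548 CPM with 20% therapy. Every therapy library was above every prevention library in this sum. Of 19 members 18 had a positive difference, with a median log2 of 0.46, but 0 were called by edgeR, DESeq2 or voom and 3 were at an unadjusted p under 0.05. At 5% the median was -0.67, and the sums were 391 to 609 CPM with prevention and 277 to 302 CPM with therapy.

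Subunits of the respiratory chain had a median of 0.00 over 35 genes and 0 called by edgeR, DESeq2 or voom, with 2 higher and 1 lower at an unadjusted p under 0.05. Their sums were 6109 to 6986 CPM with prevention and 6232 to 6823 CPM with therapy, against 8891 to 9104 CPM in FAT-MASH livers. Both schedules lay below FAT-MASH and overlapped each other.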
